A study of Mus musculus with 2 samples.

Results

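Transcripts of 4 surface genes of the Ly6 family, Ly6a, Ly6c1, Ly6c2 and Ly6e, were followed in single lung γδ T cells. The 4 genes were taken by their symbols from the 32285 genes of the count matrices. The data are 2 droplet libraries, 1 per group, made from lung tissue of mice that were 5 to 7 weeks old and not infected. The WT library holds sorted γδ T cells lacking the Vγ1 chain from strain C57BL/6NCrl. The KO library holds sorted Vγ1+ cells from strain B6.Cg-Tcrgtm1lku(B6.Vg4-/-Vg6-/-), whose label gives loss of the Vγ4 and Vγ6 chains. Mice of both genders were used in the study, and how many animals entered each library is not given in the sources used here. Sort, genotype, strain and library differ together and cannot be told apart, and with 1 library per group no test was run. All 95% intervals are exact and cover counting error only.

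Ly6 proteins are small surface proteins held in the outer membrane leaflet by a lipid (GPI) anchor, with no part inside the cell. Ly6a encodes Sca-1, an antigen of blood stem cells that activated and memory lymphocytes also carry. Ly6c1 and Ly6c2 encode the Ly6C antigen of memory-like T cells, NK cells and inflammatory monocytes, and Ly6e encodes a broadly expressed member of the family. Interferons are known to induce several members. Mouse γδ T cells fall broadly into interferon-γ producers with type 1 and cytotoxic genes and IL-17 producers, and the Vγ6 cells of the lung belong to the second kind. The 3 genes used to split the cells were Ccl5, a chemokine of type 1 and cytotoxic lymphocytes, Tmem176b, a membrane protein gene of IL-17-type cells, and Cd8b1, the CD8 beta chain.

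All 4 genes lie in 1 cluster on chromosome 15 (GRCm38, GENCODE annotation), each protein coding. Ly6e (ENSMUSG00000022587) spans 74955051 to 74959905 on the plus strand. Ly6a (ENSMUSG00000075602, 74994877 to 74998031), Ly6c1 (ENSMUSG00000079018, 75044018 to 75048830) and Ly6c2 (ENSMUSG00000022584, 75108158 to 75111970) lie on the minus strand. The coding sequences of Ly6c1 and Ly6c2 are both 393 bases long and differ at 9 positions, 97.7% identity. Ly6a shares 82.6% with Ly6c1 and 82.1% with Ly6c2, and Ly6e between 51.9% and 55.7% with the other three. The near-identity decides how far Ly6c1 and Ly6c2 counts can be told apart, so the coding stretch where 6 of the 9 differences lie, bases 6 to 65 counted from the start codon, is given for both genes with the differing bases in capitals.
Ly6c1: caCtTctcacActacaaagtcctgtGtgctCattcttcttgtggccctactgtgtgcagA
Ly6c2: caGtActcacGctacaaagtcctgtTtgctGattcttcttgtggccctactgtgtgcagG

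Of all 50-base stretches in the annotated transcripts of Ly6c1, 67.2% occurred in no other family gene, and of Ly6c2 86.0%. The shares were 82.3% for Ly6a and 100% for Ly6e. For stretches of 90 bases they were 87.1% for Ly6c1, 92.7% for Ly6c2 and 97.8% for Ly6a. A read from the remaining stretches fits more than 1 gene, so the division of UMIs (unique molecular identifiers, 1 per captured transcript) between Ly6c1 and Ly6c2 is uncertain. Of the 1764 stretches of 50 bases in Ly6c1, 379 were shared with Ly6c2, and of the 1297 in Ly6a, 3 were. Which family genes hold the other shared stretches was not worked out, so the division between Ly6a and Ly6c1 may be uncertain as well. The upstream sequences of this pair are given because Ly6c1 was lower and Ly6c2 higher with Ccl5 in the second, KO-labelled library. They are the 250 bases before the RefSeq start (GRCm38.p6, minus strand, 5′ to 3′), with runs of at least 12 bases found in both in capitals.
Ly6c1 (chr15:75048838-75049087): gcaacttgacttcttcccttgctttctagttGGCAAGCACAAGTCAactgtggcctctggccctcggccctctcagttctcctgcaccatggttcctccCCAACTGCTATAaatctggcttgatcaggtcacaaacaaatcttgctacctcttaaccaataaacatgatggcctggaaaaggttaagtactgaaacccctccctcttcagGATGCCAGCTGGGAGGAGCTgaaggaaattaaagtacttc
Ly6c2 (chr15:75111972-75112221): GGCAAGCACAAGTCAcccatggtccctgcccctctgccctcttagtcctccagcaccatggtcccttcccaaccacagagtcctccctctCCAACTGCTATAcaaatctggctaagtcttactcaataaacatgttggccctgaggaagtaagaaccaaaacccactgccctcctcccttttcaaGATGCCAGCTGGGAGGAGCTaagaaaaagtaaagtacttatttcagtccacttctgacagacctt

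These runs add up to 47 of 250 bases in each. The interferon-gamma activated site, searched as TTCNNNGAA, and the core of the interferon-stimulated response element, searched as GAAA, any 2 bases and GAAA, on both strands, had no match in either sequence. Of the same 250-base windows of 32851 promoters, 7.02% and 2.98% held them.

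The WT library had 2520 barcodes and 9173997 UMIs, the KO library 6688 barcodes and 26436826 UMIs. T cells were the cells with a Cd3d, Cd3e, Cd3g or Trdc UMI and fewer than 3 detected markers of each other class, 2250 in WT (median 3375.5 UMIs) and 6371 in KO (3569 UMIs). Shares of cells are given after each T cell was thinned at random to 2000 UMIs, which kept 2040 WT and 5743 KO cells. Levels are CPM, counts per 1000000 UMIs of the summed cells, where fewer cells and less RNA per cell cannot be told apart. The receptor genes went partly against the labels. Tcrg-V6 had 0 UMIs in the KO library, which allows a share of up to 0.0522% of cells, but 345 of its T cells had Tcrg-V4 as their only Tcrg-V gene, and 8.10% had a Tcrg-V4 UMI. It is therefore called the KO-labelled library. In WT, sorted against Vγ1, 80 T cells had only Tcrg-V1. The libraries shared 23 barcodes, 22 of them WT and 23 KO-labelled T cells, and no member's log2 ratio between the libraries, or between Tcrg-V4 and Tcrg-V6 cells, changed sign without them. Markers of endothelial cells, which carry much Ly6a, Ly6c1 and Ly6e, summed to 67.0 CPM in WT and 78.2 CPM in KO-labelled T cells, of which Pecam1, which T cells also express, gave 47.5 CPM and 58.6 CPM. Of the 8 markers 6 and 7 were above 0, and the defining endothelial gene Cdh5 was at 0.120 CPM and 0 CPM. Their part in the Ly6 values was not tested.

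Ly6e was found in most T cells and Ly6c1 in few, with Ly6a and Ly6c2 between. A Ly6e UMI was found in 85.6% of WT T cells (84.0 to 87.1) and in 85.8% of those labelled KO (84.8 to 86.7). Ly6a was found in 21.8% (19.99 to 23.6) and 18.8% (17.8 to 19.8), respectively. Ly6c2 was found in 16.9% of WT T cells (15.3 to 18.6) and in 22.4% of those labelled KO (21.3 to 23.5), and without thinning in 18.8% and 25.0%. Ly6c1 was found in 2.01% and 4.04%. These shares do not rank the genes by expression, since capture differs between genes.

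The cells with other identities give the level to read these shares against. In myeloid-like cells Ly6a was found in 1 of 41 WT cells (2.44%) and 0 of 15 KO-labelled cells, which allows up to 20%, while B-like cells carried it in 9 of 19 and 8 of 18. Ly6c2 was found in 1 of 19 B-like cells of WT (5.26%, 0.133 to 26.0) and 1 of 18 of the KO-labelled library (5.56%, 0.141 to 27.3), with median depths of 2446 and 3556.5 UMIs. Ly6c1 was found in 1 of 19 and 0 of 18 B-like cells and in no myeloid-like cell (0 of 41 and 0 of 15). The WT share of Ly6c1, 2.01%, is below the B-like share of 5.26%, which rests on 1 of 19 cells. WT cells with only Tcrg-V6 had it in 0.416%. How much of the Ly6c1 detection in WT T cells is free RNA was not tested.

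Among cells with a UMI, Ly6c2 was unevenly held. The median was 5 UMIs in WT and 4 UMIs in KO-labelled cells at full depth, but the highest cells had 73 and 55 UMIs. The 1% of T cells with most Ly6c2 held 20.4% and 17.5% of its UMIs. Ly6e had a median of 5 UMIs in both libraries, Ly6a 2 UMIs and Ly6c1 1 UMI.

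The question of how the family divides among γδ T cells was first asked by receptor chain. A cell was placed in a γ or δ group if UMIs of only 1 variable gene of that chain were found in it, so groups of the 2 chains overlap. Ly6c2 varied most between WT groups. It was found in 58.5% (51.7 to 65.0) of the 224 WT cells with only Trav13-4-dv7 and in 1 of 641 cells with only Trdv4, 0.156% (0.00395 to 0.866). Cells with only Trdv2-2 and only Trdv5 lay between these values, at 16.4% (12.03 to 21.6) and 7.78% (5.15 to 11.2). By γ chain, 26.0% of cells with only Tcrg-V1 (16.6 to 37.2), 22.0% with only Tcrg-V4 (17.9 to 26.5) and 2.70% with only Tcrg-V6 (1.45 to 4.58) had a Ly6c2 UMI. The first and second of these do not differ beyond their intervals.

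The δ chain divided the Tcrg-V4 cells of WT further. Ly6c2 was found in 56.2% (44.1 to 67.8) of the 73 cells with only Tcrg-V4 and only Trav13-4-dv7, in 13.3% (5.94 to 24.6) of the 60 with Trdv2-2 and in 3.70% (1.02 to 9.21) of the 108 with Trdv5. Ly6a was found in 13.7%, 33.3% and 31.5% of the same cells, so the group with most Ly6c2 had least Ly6a. Cells with Tcrg-V6 and Trdv4, the receptor of the fetal IL-17 cells, had a Ly6c2 UMI in 1 of 414 cells, 0.242% (0.00612 to 1.34), and a Ly6a UMI in 21.5% (17.6 to 25.8). Most of the 13 cells with Ly6c2 among the 481 with only Tcrg-V6 thus lay outside this pair.

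**Figure D1:**
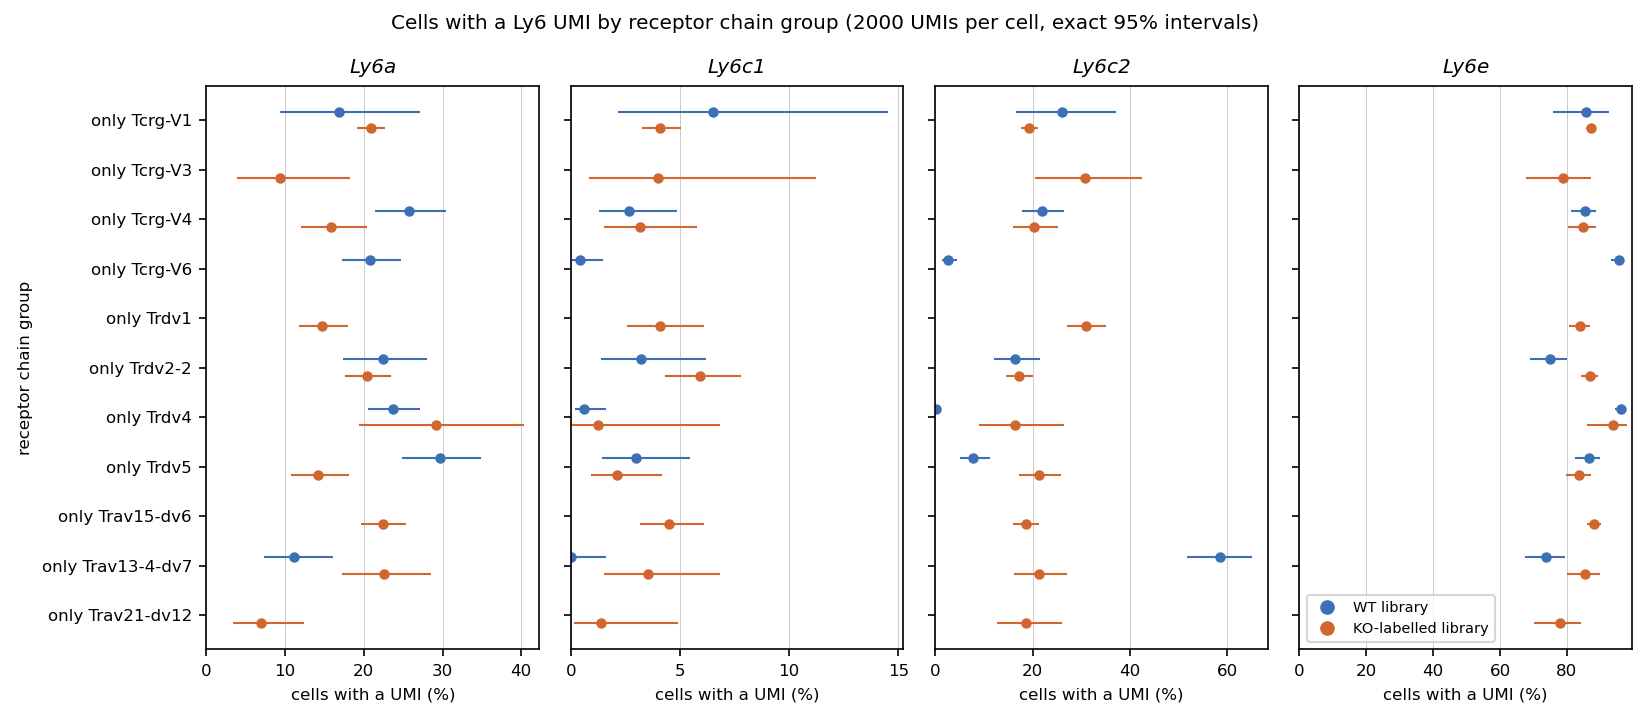
Share of T cells with a UMI of each Ly6 gene (x axis, percent, after thinning to 2000 UMIs per cell) by receptor chain group (y axis) in the WT library (blue) and the KO-labelled library (orange), with exact 95% intervals as bars and only groups of at least 50 cells. Ly6c2 runs from 0.156% in Trdv4 cells to 58.5% in Trav13-4-dv7 cells of WT and only from 16.5% to 31.0% in the KO-labelled library, while Ly6e stays between 73.7% and 96.1%.

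The KO-labelled groups were closer together for Ly6c2 than those of WT. Its share ran from 16.5% in cells with only Trdv4 (9.06 to 26.5) to 31.0% in cells with only Trdv1 (27.1 to 35.1). Cells with only Tcrg-V1, Tcrg-V3 and Tcrg-V4 had it in 19.2%, 30.7% and 20.3%. Trdv5, Trav13-4-dv7, Trav21-dv12, Trav15-dv6 and Trdv2-2 cells lay between 17.2% and 21.3%, with overlapping intervals.

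Ly6a was lowest in the Trav21-dv12 cells, a group that reached 50 cells only in the KO-labelled library. In KO-labelled cells with only Trav21-dv12 it was found in 6.94% (3.38 to 12.4), against 14.1% to 29.1% in the other δ groups of that library. In the 50 cells that also had only Tcrg-V1 it was found in 2 cells. Among single-chain WT groups it ran from 11.2% in cells with only Trav13-4-dv7 (7.35 to 16.03) to 29.6% in cells with only Trdv5 (24.8 to 34.9).

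Ly6e went the other way from Ly6c2 at the extremes in WT, but not in every group. It was found in 95.4% of Tcrg-V6 cells (93.2 to 97.1) and 96.1% of Trdv4 cells (94.3 to 97.5), against 73.7% of Trav13-4-dv7 cells (67.4 to 79.3) and 74.8% of Trdv2-2 cells (68.9 to 80.1). Tcrg-V4 cells had Ly6e in 85.3% (81.2 to 88.7), although their Ly6c2 share was not below that of Trdv2-2 cells. Ly6c1 stayed at or under 6.49% in every group set by 1 chain with at least 50 cells, and reached 7.27% (2.02 to 17.6) in the 55 KO-labelled cells with only Tcrg-V4 and only Trav15-dv6. It was found in 0.416% of WT Tcrg-V6 cells, 0.624% of WT Trdv4 cells and 0 of 224 WT Trav13-4-dv7 cells, which allows up to 1.34%, against 5.90% (4.33 to 7.81) of KO-labelled Trdv2-2 cells.

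Within WT, the cells with only Tcrg-V4 (392) were set against those with only Tcrg-V6 (507). Ly6c2 was at 433 CPM (400.4 to 467.8) in Tcrg-V4 cells and 46.9 CPM (37.8 to 57.6) in Tcrg-V6 cells, a log2 ratio of 3.21 (2.89 to 3.54). Leaving out the 5% of cells with most UMIs raised this ratio to 4.33, and averaging each cell's own CPM to 3.84. The Tcrg-V6 level rests on few cells, 13 of 481 after thinning, most of them not among those with only Trdv4. Ly6c1 was at 26.1 CPM and 2.04 CPM (39 and 4 UMIs), a log2 ratio of 3.68 (2.20 to 5.62). Ly6e was lower in Tcrg-V4 cells, 1349 CPM and 2391 CPM, with a log2 ratio of -0.83 (-0.90 to -0.75). Ly6a was at 223 CPM and 210.7 CPM, and its log2 ratio of 0.08 had an interval from -0.13 to 0.29. Thus 2 of the 4 genes were at least 2-fold higher in Tcrg-V4 cells and 0 at least 2-fold lower, where 4.78% and 5.41% of 8009 genes were.

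The combinations per cell were dominated by Ly6e. Ly6e alone was found in 52.2% of WT T cells (50.01 to 54.4) and in 50.4% of those labelled KO (49.1 to 51.7). The next most frequent patterns were Ly6a with Ly6e, 18.9% in WT and 13.2% among KO-labelled cells, and Ly6c2 with Ly6e, 11.8% and 15.7%. None of the 4 genes was found in 9.07% and 9.98%. All 4 together were found in 1 of 2040 WT cells and 26 of 5743 KO-labelled cells. Ly6c2 alone was found in 3.87% of WT cells and 2.91% of KO-labelled cells. Exactly 1 gene was found in 57.3% and 54.2% of cells, exactly 2 in 31.9% and 31.2%, and exactly 3 in 1.67% and 4.20%, respectively.

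**Figure D2:**
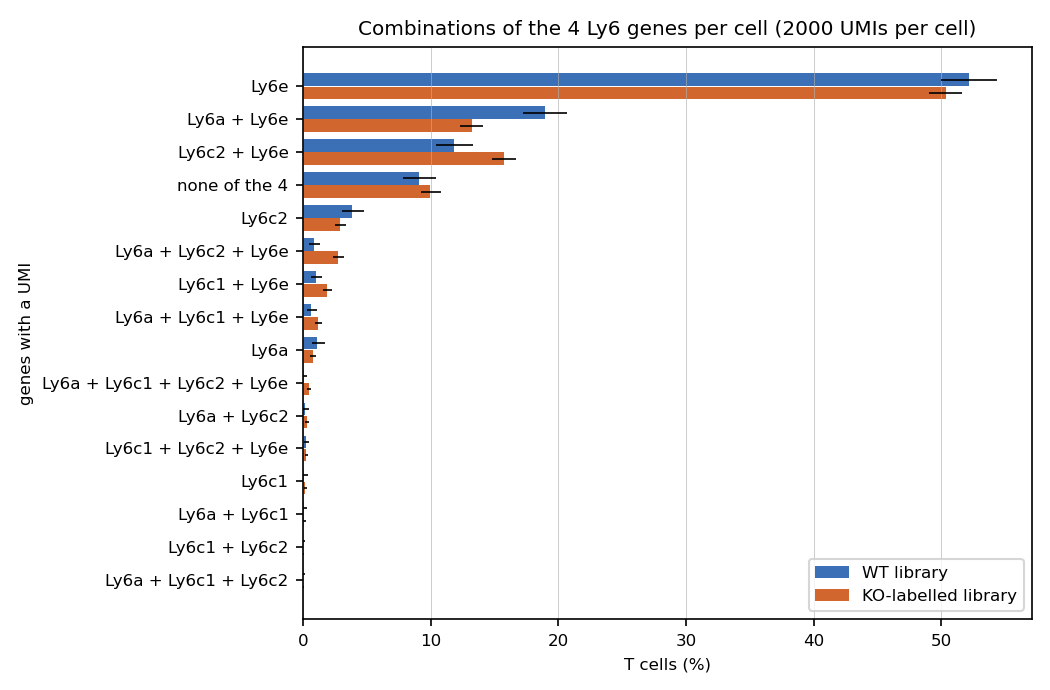
Share of T cells (x axis, percent, after thinning to 2000 UMIs per cell) with each combination of the 4 Ly6 genes (y axis) in the WT library (blue) and the KO-labelled library (orange), 1 bar per library. Ly6e alone leads in both at 52.2% and 50.4%, Ly6a with Ly6e is second in WT at 18.9% and Ly6c2 with Ly6e is second in the KO-labelled library at 15.7%.

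The combinations followed the receptor in WT. Ly6c2 with Ly6e was found in 40.6% of Trav13-4-dv7 cells (34.1 to 47.4), 16.1% of Tcrg-V4 cells (12.5 to 20.2) and 2.29% of Tcrg-V6 cells (1.15 to 4.06). Ly6e alone was found in 22.8%, 43.4% and 72.6% of the same groups. Among Trdv4 cells 72.5% had Ly6e alone and 22.9% had Ly6a with Ly6e. In the KO-labelled cells with only Tcrg-V1, Ly6e alone was found in 51.1%, Ly6a with Ly6e in 15.9% and Ly6c2 with Ly6e in 14.4%.

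Ly6a and Ly6c2 were seldom found together in WT. Both were found in 21 of 2040 WT cells, 1.03%, where the product of their shares is 3.68%, a ratio of 0.28 (0.17 to 0.43). KO-labelled cells with both came to 3.50% against a product of 4.20%, a ratio of 0.83 (0.72 to 0.96). Put per cell, Ly6c2 was found in 4.73% of WT cells with Ly6a (2.95 to 7.14) and 20.3% of those without (18.4 to 22.4). The same shares were 18.6% (16.4 to 21.1) and 23.2% (22.0 to 24.5) in the KO-labelled library. Among cells with a Ccl5 UMI, Ly6c2 was found in 41.3% with Ly6a (27.0 to 56.8) and 57.5% without (53.2 to 61.7) in WT. The KO-labelled shares were 50.8% (44.6 to 56.9) and 48.6% (46.3 to 50.9), and the intervals overlapped in both libraries.

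Ly6a was found more often beside Ly6c1 and Ly6e. Ly6a was found in 43.5% of KO-labelled cells with Ly6c1 (37.1 to 50.2) and 17.7% of those without (16.7 to 18.8), and in WT in 36.6% of 41 cells (22.1 to 53.1) and 21.5% (19.7 to 23.3). Whether reads that fit both Ly6a and Ly6c1 add to this was not tested. Ly6a was also found more often with Ly6e than without it, 23.9% against 9.22% in WT and 20.5% against 8.20% in the KO-labelled library. Ly6c2 was found in 15.1% of WT cells with Ly6e and 28.0% of those without, and in 22.3% and 22.6% of KO-labelled cells. Ly6c1 and Ly6c2, whose reads could be exchanged, were not found together often. Ly6c1 was found in 1.45% of WT cells with Ly6c2 and 2.12% of those without, and in 3.19% and 4.28% in the KO-labelled library, with overlapping intervals in both.

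Most cells with Ly6c2 also had Ccl5. In WT, 56.2% of the 580 cells with a Ccl5 UMI had Ly6c2 (52.1 to 60.3), against 1.30% of the 1460 without (0.785 to 2.02). The levels were 988 CPM and 20.4 CPM, a log2 ratio of 5.60 (5.33 to 5.89), or 4.799 when Ly6c1 and Ly6c2 UMIs were summed. KO-labelled shares were 48.9% of 2163 cells (46.7 to 51.0) and 6.34% of 3580 cells (5.56 to 7.19), and the log2 ratio was 3.39 (3.30 to 3.48). The Ccl5 cells were 28.4% of WT cells and held 96.3% of Ly6c2 UMIs, and 37.7% of KO-labelled cells and held 86.2%. The shares without Ccl5 lie within the wide intervals of the B-like shares, 1 cell of 19 and 1 of 18. At full depth the B-like cells held 17 and 32 Ly6c2 UMIs, so they may not measure free RNA alone. WT Trdv4 cells without Ccl5 had Ly6c2 in 0 of 606 cells, which allows up to 0.495%. How much of the shares without Ccl5 is free RNA was not tested.

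Ly6a went the other way. It was found in 7.93% of WT cells with Ccl5 (5.86 to 10.4) and 27.3% without (25.0 to 29.6), and in 12.2% (10.9 to 13.7) and 22.7% (21.4 to 24.1) in the KO-labelled library. The log2 ratios of CPM were -2.14 (-2.39 to -1.89) and -1.32 (-1.43 to -1.20). Ly6e was lower with Ccl5 as well, by log2 ratios of -1.11 (-1.18 to -1.04) in WT and -0.58 (-0.61 to -0.55) among KO-labelled cells, and Ly6c1 had log2 ratios of -0.70 (-1.42 to -0.03) and -1.11 (-1.39 to -0.84), of which the WT value changed sign to 0.11 in cells with a Trdc and no Trac UMI. In WT 1 of the 4 genes was at least 2-fold higher and 2 at least 2-fold lower with Ccl5, where 3.69% and 6.63% of 9705 genes were. The KO-labelled library also had 1 higher and 2 lower, where 1.43% and 4.26% of 11364 genes were. The cells with and without Ccl5 had median depths of 3888 and 3426.5 UMIs in WT and 3681 and 3770 UMIs in the KO-labelled library.

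Tmem176b went with the opposite pattern. Ly6a was found in 29.4% of the 905 WT cells with Tmem176b (26.4 to 32.5) and 15.7% of the 1135 without (13.6 to 17.9), 290 CPM and 120 CPM, a log2 ratio of 1.28 (1.13 to 1.43). The KO-labelled values were close, 30.5% (27.7 to 33.3) and 16.02% (15.0 to 17.1), with a log2 ratio of 1.12 (1.03 to 1.22). Ly6e was found in 96.1% and 77.3% of WT cells and in 97.3% and 83.1% of KO-labelled cells, with log2 ratios of 1.09 (1.04 to 1.14) and 0.97 (0.94 to 0.998).

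Ly6c2 was low where Tmem176b was found. It was detected in 1.55% of WT cells with Tmem176b (0.848 to 2.58) and 29.2% of those without (26.5 to 31.9), a log2 ratio of -4.10 (-4.39 to -3.83) that ranged to -3.03 with Tmem176b called at 1000 UMIs and to -4.94 without the 5% of cells with most UMIs. KO-labelled shares were 7.04% (5.60 to 8.73) and 26.0% (24.7 to 27.2), a log2 ratio of -1.53 (-1.64 to -1.42). Ly6c1 had log2 ratios of -1.35 (-2.06 to -0.69) and -0.96 (-1.32 to -0.61). At the 2-fold mark 2 genes were higher and 2 lower in WT, where 5.33% and 6.89% of all genes were, and 1 was higher and 1 lower in the KO-labelled library, where 6.33% and 6.34% were.

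Cd8b1 marked few WT cells, 56 of 2040, and 643 of 5743 KO-labelled cells. Ly6c1 was at 62.6 CPM (35.0 to 103) in WT cells with Cd8b1 and 12.1 CPM in the others, a log2 ratio of 2.37 (1.48 to 3.17), with the UMIs after thinning in only 3 cells. With Cd8b1 called at 1000 UMIs the ratio was 0.93, with an interval that included 0. Ly6c1 in the KO-labelled library was at 39.2 CPM and 25.3 CPM, a log2 ratio of 0.63 (0.31 to 0.94). At least 2-fold higher were 1 of 4 genes in WT and 0 of 4 in the KO-labelled library, where 9.95% and 1.06% of all genes were.

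Ly6c2 did not follow Cd8b1 in a steady way. It was found in 23.2% of WT cells with Cd8b1 (13.0 to 36.4) and 16.7% without, but its CPM ratio was -0.22 (-0.59 to 0.13), and 0.56 when Cd8b1 was called at full depth. KO-labelled shares were 16.3% (13.6 to 19.4) and 23.1% (22.0 to 24.3), with a log2 ratio of -0.41 (-0.52 to -0.30) that came to -0.019 in cells with a Trdc UMI and no Trac UMI. Ly6a and Ly6e were lower with Cd8b1 by log2 ratios of -0.85 (-1.47 to -0.30) and -0.69 (-0.88 to -0.50) in WT, and -0.18 (-0.34 to -0.02) and -0.39 (-0.44 to -0.33) in the KO-labelled library. Of the genes that αβ T cells would carry, Trbc1, Trbc2 and Cd8a had higher shares with Cd8b1 in both libraries, and Trac and Cd4 did not. No intervals were computed for these shares. The smaller differences, as for Trbc2 in WT and Trbc1 in the KO-labelled library, may be counting error alone. A Trac UMI was found in 0 of 56 WT cells with Cd8b1, too few cells to separate it from the 5.75% of those without. In KO-labelled cells the Trac shares were 5.75% and 5.88%. Trbc1 was found in 35.7% and 22.2% of WT cells with and without Cd8b1 and in 28.8% and 26.1% of KO-labelled cells, and Trbc2 in 60.7% and 55.6%, and 63.3% and 59.1%. Cd8a, the CD8 alpha chain, was found in 14.3% and 1.31%, and 8.09% and 1.39%. Their part in the Ly6 values was not tested beyond the cells with Trdc and no Trac. Cd44, a memory gene, was found in 3.57% and 2.33% of cells with Cd8b1, against 26.2% and 13.1% of those without.

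**Figure D3:**
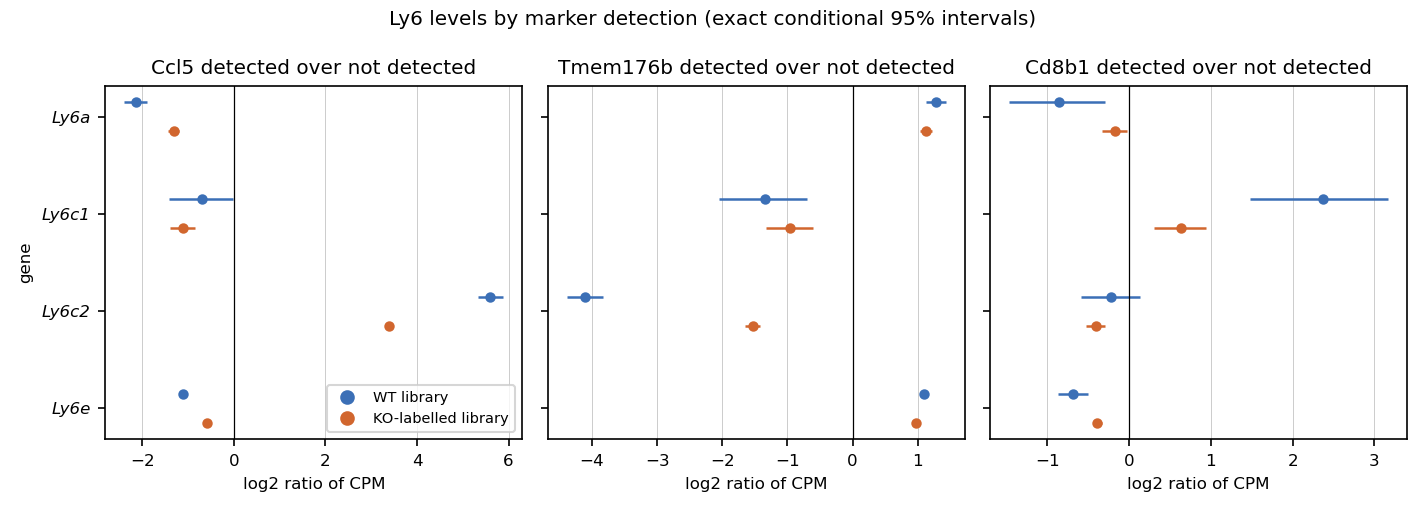
Log2 ratio of CPM (x axis) of each Ly6 gene (y axis) between T cells with and without a UMI of Cd8b1, Ccl5 or Tmem176b (panels) in the WT library (blue) and the KO-labelled library (orange), with exact conditional 95% intervals. Ly6c2 lies at 5.60 and 3.39 by Ccl5 and at -4.10 and -1.53 by Tmem176b, and Ly6a on the opposite side of 0 in both panels.

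The 3 markers were then read jointly. With Ccl5 alone, Ly6c2 was found in 59.8% of 512 WT cells (55.4 to 64.0) and in 50.2% of the 1858 KO-labelled ones (47.9 to 52.5), and Ly6a in 5.86% and 11.1%. With Tmem176b alone, Ly6c2 was found in 0.234% of 853 WT cells (0.0284 to 0.844) and in 1.69% of the 946 KO-labelled ones (0.9698 to 2.73), and Ly6a in 29.4% and 31.3%. With none of the 3 markers, Ly6c2 was found in 2.28% of 570 and 8.02% of 2170 cells, and Ly6a in 24.4% and 19.5%.

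Cells with 2 of the markers were fewer. Ccl5 and Tmem176b were found together in 49 WT and 126 KO-labelled cells, of which 22.4% (11.8 to 36.6) and 45.2% (36.4 to 54.3) had Ly6c2, and 28.6% (16.6 to 43.3) and 23.8% (16.7 to 32.2) had Ly6a. Ly6c2 was found in 38.2% of the 173 KO-labelled cells with Cd8b1 and Ccl5 (30.9 to 45.8) and 7.80% of the 449 with Cd8b1 alone (5.49 to 10.7). How many of these cells are doublets was not tested.

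The division by Ccl5 was present within each receptor group that had at least 50 cells on both sides. In WT these were 4 groups, and Ly6c2 was found in 40.0% to 73.1% of cells with Ccl5 and in 0.621% to 11.3% of those without. Among Tcrg-V4 cells the shares were 67.2% of 119 cells (58.0 to 75.6) and 0.787% of 254 (0.0955 to 2.82). Among Trav13-4-dv7 cells they were 73.1% of 171 (65.8 to 79.6) and 11.3% of 53 (4.27 to 23.0). Among KO-labelled cells 8 groups could be compared, with 38.7% to 59.0% against 3.66% to 7.14%. The intervals did not overlap in any of the 12 groups, which share cells between the γ and δ chain. Trdv4 cells without Ccl5 had Ly6c2 in 0 of 606 WT cells, which allows up to 0.495%, and 0 of 57 KO-labelled cells, which allows up to 5.26%.

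**Figure D4:**
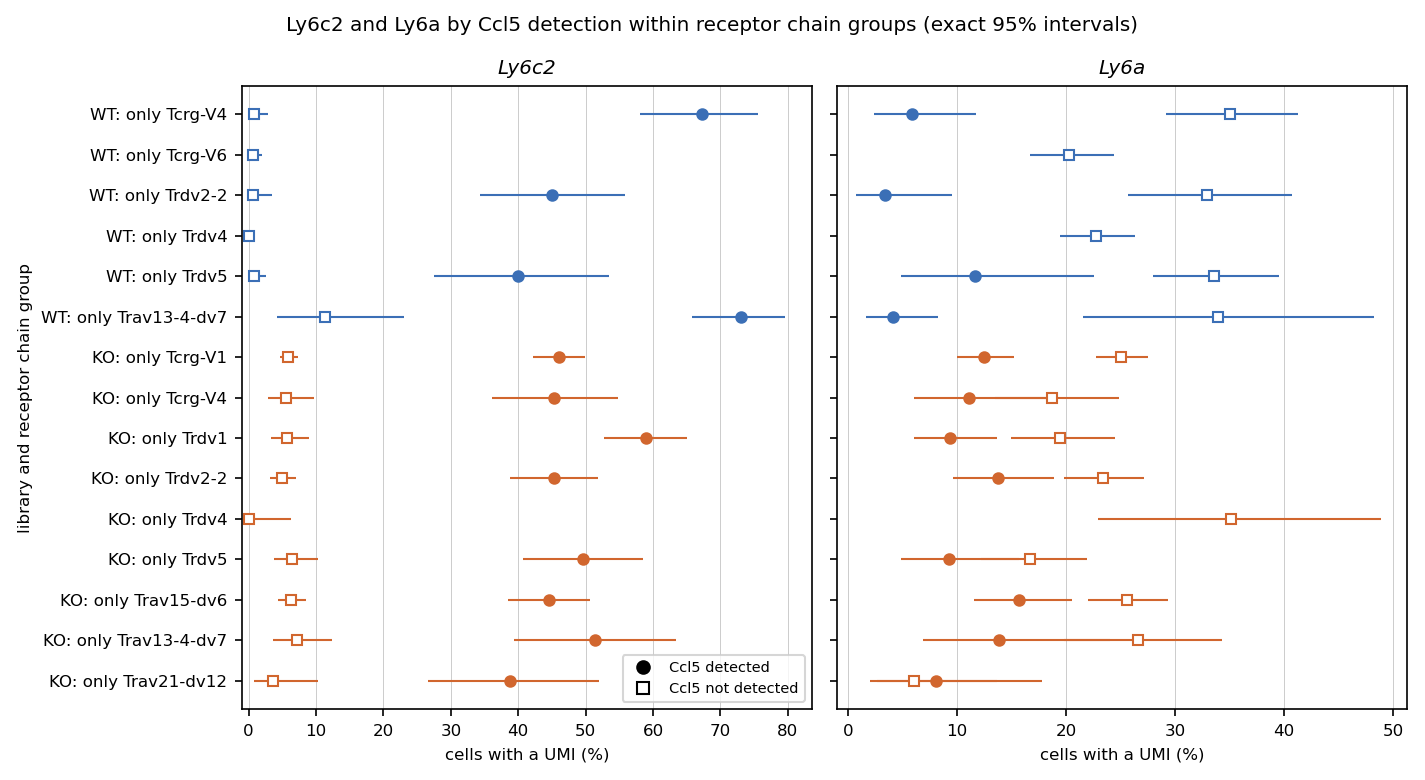
Share of T cells with a Ly6c2 or Ly6a UMI (x axis, percent, after thinning to 2000 UMIs per cell) in cells with Ccl5 (filled circles) and without (open squares) by library and receptor chain group (y axis), with exact 95% intervals and only strata of at least 50 cells. For Ly6c2 the circles lie at 38.7% or above and the squares at 11.3% or below, and for Ly6a the circle lies left of the square except in KO-labelled Trav21-dv12 cells, at 8.06% and 6.10%.

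Ly6a was lower with Ccl5 in 4 of 4 WT groups, at 3.37% to 11.7% against 32.9% to 35.0%, with no overlap of intervals. It was lower in 7 of 8 KO-labelled groups, of which 4 had separate intervals. Among KO-labelled Tcrg-V1 cells it was found in 12.4% of 667 cells with Ccl5 (10.0 to 15.2) and 25.1% of 1340 without (22.8 to 27.5). The exception was Trav21-dv12, at 8.06% and 6.10% with overlapping intervals. Without Ccl5, Ly6a ranged from 6.10% to 26.6% in the KO-labelled groups compared. In WT it was found in 20.3% of 443 Tcrg-V6 cells and 22.8% of 606 Trdv4 cells without Ccl5, groups with too few Ccl5 cells to compare.

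By Tmem176b, Ly6a separated some receptor groups and not others. Among WT Tcrg-V4 cells it was found in 39.1% of cells with Tmem176b (30.6 to 48.1) and 18.8% without (14.1 to 24.2), and among Trdv2-2 cells in 46.6% and 15.1%. In Tcrg-V6 cells the shares were 21.1% and 19.8%, and in Trdv4 cells 23.7% and 23.9%, with overlapping intervals. In the KO-labelled library Ly6a was higher with Tmem176b in 6 of 6 groups, with separate intervals in 5. Among its Tcrg-V1 cells the shares were 33.5% (29.2 to 37.9) and 17.0% (15.2 to 19.0). Ly6e was higher with Tmem176b in 5 of 5 WT and 6 of 6 KO-labelled groups, with separate intervals in all 11.

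The genes found beside Ly6c2 were read from 5 lists: type 1 and memory-like, IL-17 type, naive and recirculation, interferon-stimulated, and other Ly6 family genes. In WT, cells with Ly6c2 (345) against those without (1695) had 12 of 16 type 1 genes at least 2-fold higher and 0 lower, where 2.91% of all genes were higher and 8.16% lower. Gzmm, a granzyme, had a log2 ratio of 4.50 (3.32 to 5.91), Ifng, interferon-γ, 3.31 (2.83 to 3.80), Xcl1, a chemokine for cross-presenting dendritic cells, 2.72 (2.16 to 3.29) and Fasl, a death ligand, 2.40 (1.99 to 2.82). The lowest of this list was Klrk1, which encodes NKG2D, at -0.33 (-0.56 to -0.11). All 17 IL-17 type genes were at least 2-fold lower, among them Il17a at -4.28 (-4.91 to -3.72) and Tmem176a at -3.87 (-4.31 to -3.46). Il17f (2 UMIs against 413) and Sox13 (1 UMI against 183), the transcription factor of fetal IL-17 cells, stood at -5.63 (-8.68 to -3.77) and -5.46 (-10.8 to -2.96).

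KO-labelled cells with Ly6c2 also had more type 1 and fewer IL-17 type transcripts. The 1284 such cells had 10 of 17 type 1 genes at least 2-fold higher and 13 of 17 IL-17 type genes at least 2-fold lower, where 1.36% of all genes were higher and 4.99% lower. Xcl1 stood at 2.38 (2.05 to 2.72), Gzmm at 2.12 (1.45 to 2.80), Fasl at 2.10 (1.86 to 2.36) and Ifng at 2.07 (1.83 to 2.31). Ccr6, a chemokine receptor of IL-17 cells, had 2 UMIs against 218 and stood at -4.90 (-7.96 to -3.03), and Il17a at -4.22 (-5.44 to -3.23). Cd163l1, a scavenger receptor gene of the same list, was at 0.18 (0.05 to 0.31).

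Fewer genes of the other lists passed 2-fold. Beside them, 2.91% of all genes were at least 2-fold higher and 8.16% lower in WT, and 1.36% and 4.99% in the KO-labelled library. A count of 1 gene in lists this short is not read as a difference from these shares. Of 22 interferon-stimulated genes in WT, 3 were at least 2-fold higher, Ifit3 at 2.64 (1.60 to 3.73), Zbp1 at 1.202 (0.84 to 1.56) and Oas1a at 1.06 (0.23 to 1.85), and 0 lower, and in the KO-labelled library 1 of 23 was, Ifit3b at 1.67 (0.97 to 2.36). Of 9 naive and recirculation genes 1 was higher and 1 lower in WT, Dapl1 at 1.56 (0.98 to 2.13) and Ccr9, a gut-homing receptor, at -1.57 (-2.20 to -0.99). Among KO-labelled cells 2 were lower, Ccr9 at -1.96 (-2.25 to -1.69) and Cd24a at -1.36 (-1.60 to -1.12). Of the other Ly6 family genes with at least 30 UMIs, 2 of 2 were lower in WT and 2 of 5 in the KO-labelled library. Ly6g5b was among them in both, at -2.81 (-3.88 to -1.91) and -3.02 (-4.04 to -2.16). Of the other 3 members, 1 was at least 2-fold lower in WT, Ly6a at -2.37 (-2.74 to -2.02), and none in the KO-labelled library, where Ly6a stood at -0.47 (-0.60 to -0.35).

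Cells with a Ly6a UMI had more of some interferon-stimulated genes in both libraries. In WT (444 cells) 5 of 22 were at least 2-fold higher and 0 lower, where 0.896% of all genes were higher and 5.32% lower. Rsad2, which encodes viperin, stood at 1.67 (0.68 to 2.63), Igtp, an interferon-induced GTPase, at 1.45 (1.22 to 1.67), Gbp2, a guanylate-binding protein, at 1.29 (1.03 to 1.55) and Ifit1 at 1.15 (0.55 to 1.73). Ifi27l2a of the same list was at -0.97. In the KO-labelled library (1078 cells) 4 of 23 were higher, where 1.15% of all genes were higher and 2.72% lower, Ifit3b at 1.28 (0.55 to 1.99), Igtp at 1.27 (1.15 to 1.38), Ifit3 at 1.07 (0.56 to 1.57) and Gbp2 at 1.02 (0.88 to 1.16). Igtp and Gbp2 were thus higher in both, and Rsad2 was at -0.34 (-0.90 to 0.18) in the KO-labelled library.

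The other lists were read beside Ly6a as well, and differences between the libraries were not tested. Over all genes 0.896% were at least 2-fold higher and 5.32% lower with Ly6a in WT, and 1.15% and 2.72% in the KO-labelled library. Of the type 1 and memory-like genes, 11 of 16 were at least 2-fold lower in WT cells with Ly6a. Xcl1 was at -3.88 (-6.94 to -1.99, 2 UMIs against 114) and Gzma, granzyme A, at -3.43 (-3.84 to -3.05), and Eomes had 0 UMIs against 88. Among KO-labelled cells 2 of 17 genes of this list were lower and 1 higher, with Eomes at -1.11 (-1.96 to -0.37), Klrd1 at -1.02 and Gzmk at 2.30 (1.21 to 3.4). Of 17 IL-17 type genes 2 were higher in WT, Il17f at 1.34 (1.05 to 1.63) and 5830411N06Rik at 1.34 (1.196 to 1.48), and 4 in the KO-labelled library, Il17f at 1.45 (0.65 to 2.23), Ccr2 at 1.21 (1.06 to 1.35), Cxcr6 at 1.06 and Tmem176a at 1.03 (0.94 to 1.12). Naive and recirculation genes were lower in 3 of 9 and 1 of 9, and of the other Ly6 family genes 0 of 2 passed 2-fold in WT, while 1 of 5 was higher, Ly6g5b at 1.27 (0.93 to 1.60), and 1 lower in the KO-labelled library. Of the other members Ly6c1 was higher with Ly6a in both libraries, at 1.05 (0.45 to 1.64) and 2.04 (1.81 to 2.26), and Ly6c2 was at -1.86 (-2.09 to -1.64) in WT and -0.17 (-0.25 to -0.09) in KO-labelled cells. The part of shared reads in the Ly6c1 values was not tested.

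Likeness of pattern was measured over 28 receptor groups of at least 50 cells, 11 of WT and 17 of the KO-labelled library, as Pearson's r of log2(CPM + 1) among 6753 genes. The groups overlap in cells and share libraries and depth, so r is a description. Most like Ly6c2 were Pde2a, a phosphodiesterase (r = 0.95), 1700025G04Rik, Gm2682, Il12rb2, the signalling chain of the IL-12 receptor, and Klrd1, which encodes CD94 (r = 0.94). Most like Ly6e were Ltb4r1, a leukotriene B4 receptor (r = 0.94), Ly6g5b, Krtcap2, S100a4 and Cxcr6 (r = 0.91). Hk2, hexokinase 2, Il7r, the IL-7 receptor chain, Tex14, Nol10 and Ldha, lactate dehydrogenase A, were most like Ly6a (r = 0.82 to 0.84). Phf6, Itgae, which encodes CD103, Gpr146, Slc35e2 and Gadd45g were most like Ly6c1 (r = 0.80 to 0.86). Spearman's rho kept 3 of the 5 genes of Ly6e, 1 of Ly6c2 and 0 of Ly6a and Ly6c1. Between members, r was -0.80 for Ly6c2 and Ly6e, -0.41 for Ly6a and Ly6c2, 0.54 for Ly6a and Ly6e and 0.40 for Ly6a and Ly6c1.

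The libraries were compared last, KO-labelled over WT. Over all T cells none of the 4 genes passed 2-fold, where 3.34% of 11979 genes were at least 2-fold higher and 5.16% lower and the median log2 ratio was 0.042. Ly6c1 was at 13.9 CPM (11.5 to 16.7, 116 UMIs) in WT and 27.4 CPM (25.4 to 29.5, 694 UMIs) among KO-labelled cells, for a log2 ratio of 0.98 (0.69 to 1.27). Ly6c2 was at 318 CPM (306.4 to 330.8) and 356 CPM (348.3 to 363.0), at 0.16 (0.10 to 0.22). Ly6a was at 190.8 CPM (181.5 to 200.4) and 163 CPM (158.4 to 168.4), at -0.22 (-0.31 to -0.14), and Ly6e at 1599 CPM (1572 to 1626) and 1505 CPM (1490 to 1520), at -0.087 (-0.12 to -0.058). Ly6a was at 0.026 in cells with an Xist UMI and no Y-linked UMI and at -0.011 in cells with a Trdc and no Trac UMI, both with intervals that included 0.

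Cells with the same δ chain often differed between libraries, and in either direction, but their γ chains differed as well. Of the 684 WT cells with only Trdv4, 436 had only Tcrg-V6, against 0 of the 84 KO-labelled ones. Of Trav13-4-dv7 cells, 75 had only Tcrg-V4 and 15 only Tcrg-V1 in WT, and 14 and 77 in the KO-labelled library. The part of the γ chain in these ratios was not tested. In Trav13-4-dv7 cells Ly6c2 was at 1266 CPM (1194 to 1341) in WT and 333 CPM (298.1 to 371.9) among KO-labelled cells, for a log2 ratio of -1.92 (-2.11 to -1.75), while Ly6a was at 94.1 CPM and 226 CPM, at 1.26 (0.90 to 1.64). In Trdv4 cells Ly6c2 was at 3.16 CPM (8 UMIs) and 301.4 CPM (102 UMIs), at 6.58 (5.54 to 7.83). In Trdv5 cells Ly6c2 was at 116 CPM and 348 CPM, at 1.59 (1.32 to 1.87), and Ly6a at 266 CPM and 151 CPM, at -0.82 (-1.07 to -0.57). In Trdv2-2 cells Ly6c2 was at 286 CPM in both, with an interval of the log2 ratio from -0.20 to 0.20.

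By γ chain the libraries were compared in 2 groups. In cells with only Tcrg-V1, Ly6a was at -0.09 (-0.46 to 0.30), Ly6c2 at -0.32 (-0.59 to -0.05) and Ly6e at 0.43 (0.28 to 0.59), but the WT side holds only the 80 cells that went against its sort. In cells with only Tcrg-V4, whose KO-labelled side goes against the label, Ly6a was at 223 CPM (199.3 to 247.8) in WT and 108 CPM (91.9 to 127) among KO-labelled cells, for a log2 ratio of -1.04 (-1.32 to -0.76). Ly6c2 was at -0.27 (-0.44 to -0.10) and Ly6e at 0.05 (-0.04 to 0.14) in the same cells. Among T cells of all receptor groups, Ly6c2 without Ccl5 was at 20.4 CPM in WT and 77.9 CPM in KO-labelled cells. This is a log2 ratio of 1.94, and with Ccl5 it was -0.27. Without all cells whose Tcrg-V UMIs went against the sort, the ratio over all T cells was 0.28 for Ly6c2.

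**Figure D5:**
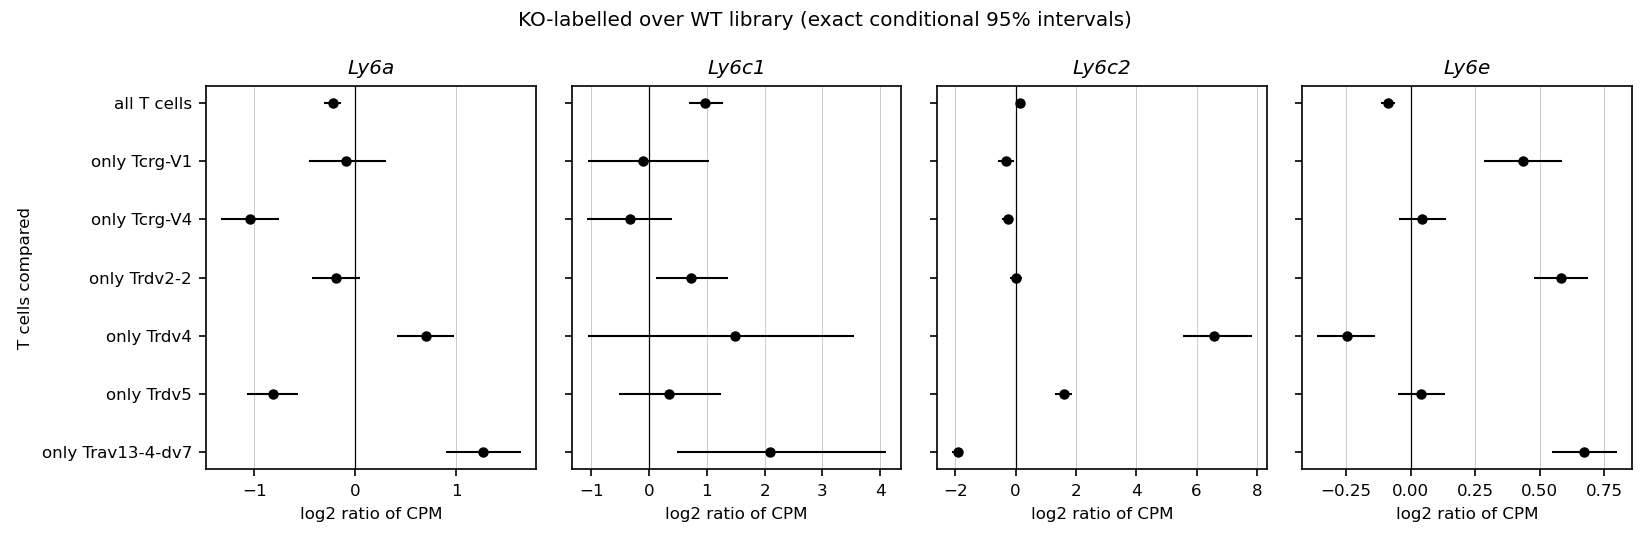
Level in the KO-labelled library over that in WT as log2 of the CPM ratio (x axis), for each Ly6 gene (panels) over all T cells and within receptor chain groups present in both libraries with at least 50 cells (y axis), with exact conditional 95% intervals. Over all T cells the 4 ratios lie between -0.22 and 0.98, while within groups Ly6c2 runs from -1.92 in Trav13-4-dv7 cells to 6.58 in Trdv4 cells.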

How the data were processed

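Lung γδ T cells of 2 groups were profiled as single cells, 1 library per group. The authors deposited raw UMI counts per gene and cell barcode, made with Cell Ranger (7.0.0 per the file headers; the methods give an earlier version) on mm10. The labels name a 3′ protocol and the methods a 5′ V(D)J kit. How multi-mapping reads were counted is not given in the sources used here. Reads shared by Ly6c1 and Ly6c2, or by other family genes, may be split or lost.

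Cells with over 200 and under 4000 genes and under 10% mitochondrial UMIs were kept, as in the study's methods (2505 WT and 6634 KO-labelled). No doublet caller was run. UMIs were summed over cells and given as CPM of their total. Ratios have exact conditional intervals, sums exact Poisson intervals and shares Clopper-Pearson intervals, all at 95%. A share of 0 is given with the limit that 3 counts allow. Shares used cells thinned to 2000 UMIs with a fixed seed, and a marker or member was detected if a thinned UMI remained. The 4 Trav15-dv6 copies were summed as 1 δ gene. The other classes were named from 3 or more detected markers of B cells, myeloid, endothelial or epithelial cells.

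The 4 genes, the splits and the lists were chosen with earlier results of these data known. Genes named are the 4 members, the receptor and split genes, at most the 4 highest and 4 lowest ratios of each list among genes with at least 30 UMIs, and the 5 genes most like each member among genes with at least 500 UMIs. Receptor constant genes, Cd44, Pecam1 and Cdh5 were named beside that rule as checks. Without replicates nothing was tested. The steps were tested on simulated data. Python 3.11.15, numpy 2.4.6, scipy 1.17.1, pandas 2.3.3 and matplotlib 3.10.9 were used. An alternative without the 5% of cells with most UMIs is a cut by depth and not a doublet call. Other alternatives covered the cell filter, scaling, T cell rule, sex-linked transcripts, chain calls, thinning, marker depth, gene minimum and fold. Those that left out cells against the sort or shared barcodes, or summed Ly6c1 and Ly6c2, were added after seeing the data.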

Additional observations from a re-analysis of the deposited data

Results flagged for a closer look

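Effects of opposite sign between receptor groups stood out for 3 genes in the comparison of the KO-labelled with the WT library. For Ly6a the log2 ratio was -1.04 in cells with only Tcrg-V4 and 1.26 in cells with only Trav13-4-dv7. For Ly6c2 it was -1.92 in Trav13-4-dv7 cells and 6.58 in Trdv4 cells, the latter from 8 WT and 102 KO-labelled UMIs. For Ly6e it was -0.25 in Trdv4 cells and 0.67 in Trav13-4-dv7 cells. The δ groups also differed in their γ chains between the libraries. With 1 library per group these differences between receptor groups were not tested.

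The B-like and myeloid-like cells, which served only as a level to read T cell shares against, also carried members of the family. Ly6a was found in 9 of 19 B-like cells of WT, 47.4% (24.4 to 71.1), and 8 of 18 of the KO-labelled library, 44.4% (21.5 to 69.2), both above the T cell shares of 21.8% and 18.8%. Ly6c2 was found in 19 of 41 myeloid-like cells of WT, 46.3% (30.7 to 62.6), and 4 of 15 of the KO-labelled library, 26.7% (7.79 to 55.1). Ly6e was found in 89.5% and 100% of B-like cells and in 90.2% and 80.0% of myeloid-like cells.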

How the results depend on the processing

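No paired analysis was possible because WT and KO consist of a single library each. Of 297 recomputed values, 207 stayed within their interval or within 1.5 times a count. Changes of sign were counted only for log2 ratios whose interval had excluded 0. Of 181 log2 ratios whose interval had excluded 0, 179 kept their sign. The 2 exceptions were Ly6a between libraries (0.026 in cells with an Xist UMI and no Y-linked UMI) and Ly6c1 by Ccl5 in WT (0.11 in cells with a Trdc and no Trac UMI).

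For Tcrg-V4 over Tcrg-V6 cells, Ly6c2 was 4.33 without the 5% of cells with most UMIs, 3.84 as a mean over cells, 2.84 with Trdc and no Trac, and 2.73 with Xist and no Y-linked UMIs, and Ly6e was -0.71 with 2 chain UMIs. Between libraries, Ly6c2 was 0.23, 0.43, 0.051 and 0.28 without the top 5%, as a mean over cells, with Xist, and without cells against the sort. Ly6e was -0.13 by median-of-ratios scaling, -0.13 with Trdc and -0.14 without cells against the sort, and Ly6a was -0.011 with Trdc.

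Shares move with depth and with the cells kept. Thinning left out cells below the set depth, while no thinning used all T cells, so these values mix both. At 1000 UMIs, 3000 UMIs and no thinning Ly6a was at 14.3%, 25.8% and 27.5% in WT and 10.9%, 23.3% and 24.8% among KO-labelled cells, and Ly6c2 at 12.4%, 22.0% and 18.8%, and 17.0%, 24.1% and 25.0%. The joint share of Ly6a and Ly6c2 over the product was 0.43 in WT without thinning.

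By Cd8b1, Ly6c2 was 0.56 at full depth and -0.70 with Trdc in WT, and -0.019 with Trdc and -0.54 without cells against the sort in the KO-labelled library. By Ccl5, Ly6c2 in WT was 6.09 at full depth, 5.10 at 1000 UMIs, 5.97 without the top 5% and 4.799 summed with Ly6c1. In the KO-labelled library it was 3.13 at 1000 UMIs and 2.90 summed. By Tmem176b, Ly6a was 1.70 at full depth and 1.08 at 1000 UMIs in WT, and 1.36 at full depth and 1.22 without cells against the sort in the KO-labelled library. At 1.5-fold, interferon-stimulated genes higher with Ly6c2 were 7 in WT and 3 among KO-labelled cells, and with Ly6a 11 in WT, IL-17 type genes higher with Ly6a were 10 in WT and 12 among KO-labelled cells, and interferon-stimulated genes higher in the KO-labelled library were 10 against 4 at 2-fold. The cause of these shifts was not tested, beyond what fewer cells or another fold imply.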

Other observations

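Several interferon-stimulated genes were higher in the KO-labelled library over all T cells, 4 of 23 at least 2-fold and 0 lower, Oas1a at 1.78, Ifi27l2a at 1.58, Ifit2 at 1.37 and Ifit3b at 1.22, where 3.34% of all genes were higher. Among the other Ly6 family genes 7 had at least 30 UMIs, of which Lynx1 at 1.29 (0.14 to 2.67) and Ly6d at 1.12 (-0.25 to 2.83) were at least 2-fold higher and Ly6g5b at -1.45 (-1.68 to -1.23) lower. IL-17 type genes were at least 2-fold lower in 13 of 17, where 5.16% of all genes were lower.

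Cells with Ly6c1 differed between libraries in their T cell receptor constant genes. In WT the 41 cells with a Ly6c1 UMI had Trbc2 in 78.0%, Trbc1 in 51.2% and Trdc in 19.5%, against 55.3%, 22.0% and 31.1% of the other cells. In the KO-labelled library the 232 such cells had Trbc2 in 65.5%, Trbc1 in 26.3% and Trdc in 32.8%, against 59.3%, 26.4% and 29.5%. Trac went the other way, at 3.02% with Ly6c1 and 5.99% without among KO-labelled cells. In WT it was at 2.44% and 5.65%, where the 41 cells with Ly6c1 are too few to separate these shares. The part of αβ T cells in the WT value of Ly6c1 was not tested.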
